A study of Homo sapiens with 6 samples.

Results

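The 5 uroplakin genes UPK1A, UPK1B, UPK2, UPK3A and UPK3B and the 5 luminal transcription factor genes GATA3, PPARG, FOXA1, ELF3 and GRHL3 were followed in 3 human bladder cancer (BC) cell lines, RT4, RT112 and SW780. They were taken by name from a list that was written with earlier results of these data known. All 10 are present among the 9597 names that the deposited table holds, each as an assembled locus with a single gene name. RT4 and RT112 cells carry an FGFR3-TACC3 fusion and SW780 cells an FGFR3-BAIBP2L1 fusion, as the labels spell it. Cells of each line were exposed for 2 days to quisinostat, an inhibitor of histone deacetylases (HDACs), or to the solvent DMSO, and polyadenylated RNA was sequenced. Quisinostat was given at 50 nM to RT4 cells, at 10 nM to RT112 cells and at 25 nM to SW780 cells. There was 1 library for each line and treatment, 6 in all, so a difference within a line has no replicate check, and dose and line cannot be told apart. RT4 cells were grown in McCoy's 5A medium and the other lines in DMEM, so medium and line cannot be told apart for RT4 cells either. A line is 1 established culture, and 1 label of the SW780 quisinostat library gives the line as SW781 where its title says SW780.

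Uroplakins are the membrane proteins of the plaques that cover the apical surface of umbrella cells, the outermost cells of the urothelium. UPK1A and UPK1B are tetraspanins, which pair in the endoplasmic reticulum with the single-span partners, UPK1A with UPK2 and UPK1B with UPK3A or UPK3B, and the pairs are then carried to the surface in fusiform vesicles. GATA3, the nuclear receptor PPARG, the forkhead factor FOXA1, the ETS factor ELF3 and the grainyhead factor GRHL3 are known to drive urothelial differentiation, and the first 3 mark the luminal type of bladder cancer.

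Values are FPKM as deposited, which are fragment numbers scaled to transcript length and to sequencing depth. Because FPKM is per length, levels of different genes within a library can be set side by side, but only roughly. Ratios moved with the GC content of transcripts (below), and the levels, orders and sums given here were not corrected for it. The depth of the libraries is unknown, so no counting error can be given for a value. The libraries had median values of 6.59 to 7.39 FPKM over all loci and listed from 213 to 534 of the 10066 loci at 0. Among 13 marker genes of other cell types, such as PTPRC of leukocytes, PECAM1 of endothelium and DES of muscle, COL1A1 and COL3A1 were the 2 found in the table, with up to 1.45 FPKM for COL1A1 and 6.19 for COL3A1, and both were above 0 in every library. The epithelial markers KRT8, KRT18, KRT19, KRT7, CDH1 and EPCAM, 6 of 8 listed, were at 44.7 FPKM or more in every library, while GATA3 ranged from 11.6 to 41.8 and KRT20 from 0.336 to 62.7 FPKM.

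The bases before the starts of 5 of the genes, picked for the results named next, are shown as background. No relation of these bases to a response was tested, and the windows of GATA3, FOXA1 and ELF3 are not shown. UPK1A and UPK3B were lower with quisinostat in RT4 and SW780 cells and higher in RT112 cells, UPK1B was the most abundant uroplakin in all libraries but that of RT4 cells with DMSO, GRHL3 was lower with quisinostat mainly in RT4 and SW780 cells, and PPARG stayed near its DMSO level in RT4 and SW780 cells. The sequences are from RefSeq on GRCh38.p14, plus strand, 5′ to 3′, and end at the base before the start of the gene in GENCODE 29. They lie at chr19:35666267-35666515 (UPK1A), chr3:119173348-119173516 (UPK1B), chr7:76510302-76510427 (UPK3B), chr3:12287118-12287367 (PPARG) and chr1:24319107-24319321 (GRHL3). Capitals mark matches to 1 of 7 motifs that were searched on both strands.
UPK1A: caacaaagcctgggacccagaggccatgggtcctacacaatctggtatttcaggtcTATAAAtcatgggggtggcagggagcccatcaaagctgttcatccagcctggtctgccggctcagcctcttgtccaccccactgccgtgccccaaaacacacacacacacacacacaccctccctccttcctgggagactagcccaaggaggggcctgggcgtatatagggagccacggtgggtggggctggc
UPK1B: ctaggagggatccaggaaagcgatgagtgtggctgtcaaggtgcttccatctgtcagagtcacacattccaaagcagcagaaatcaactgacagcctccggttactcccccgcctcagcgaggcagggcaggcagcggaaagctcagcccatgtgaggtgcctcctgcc
UPK3B: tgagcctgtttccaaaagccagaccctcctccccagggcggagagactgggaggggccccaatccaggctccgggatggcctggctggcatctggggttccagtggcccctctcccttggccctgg
PPARG: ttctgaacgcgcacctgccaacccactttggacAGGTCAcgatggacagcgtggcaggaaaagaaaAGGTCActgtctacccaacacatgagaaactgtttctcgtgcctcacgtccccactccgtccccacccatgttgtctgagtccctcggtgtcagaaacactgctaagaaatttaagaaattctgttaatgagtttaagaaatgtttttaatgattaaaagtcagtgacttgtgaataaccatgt
GRHL3: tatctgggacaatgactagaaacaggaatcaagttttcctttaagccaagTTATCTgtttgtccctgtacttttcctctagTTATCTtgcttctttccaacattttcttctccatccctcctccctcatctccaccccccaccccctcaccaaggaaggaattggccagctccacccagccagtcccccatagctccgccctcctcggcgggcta

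The motifs were AGATAA and TGATAA for GATA factors, TGTTTAC for forkhead factors, GGAAGT for ETS factors, ACCGGTT for grainyhead factors, AGGTCA for a single site of a nuclear receptor, and TATAAA for a TATA box. None of these overlaps another of them in the windows shown. Among 35093 RefSeq promoter windows of 250 bases, these letters or their reverse complement were found in 9.17% for AGATAA, 6.66% for TGATAA, 2.98% for TGTTTAC, 19.5% for GGAAGT, 0.627% for ACCGGTT, 12.1% for AGGTCA and 10.7% for TATAAA. The UPK1A window holds TATAAA, 194 bases before the RefSeq start. The PPARG window shown, the first of 6 RefSeq windows, holds AGGTCA in 2 places, 217 and 184 bases before the start. The PPARG windows that are not shown hold matches too. In windows 2 and 3, which overlap, a nuclear receptor match lies 14 and 24 bases before the start, beside a TATA box match. Window 4 holds an ETS match, and windows 5 and 6 each hold a GATA match. The GRHL3 window shown, the first of 2 RefSeq windows, holds TTATCT, the reverse complement of AGATAA, in 2 places. These are 200 and 169 bases before the RefSeq start, which for GRHL3 lies beyond the last base shown. The other GRHL3 window holds TGATAA. No match was found in the UPK1B and UPK3B windows, which says only that these letters are not there. RefSeq promoter windows were found for 8 of the 10 genes, and UPK2 and UPK3A are named only.

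In cells given DMSO, each line expressed the set at its own levels, and UPK1B and PPARG were the most abundant members in RT112 and SW780 cells. In RT4 cells the order from the highest FPKM was PPARG, UPK2, ELF3, GATA3, UPK1B, FOXA1, UPK3B, GRHL3, UPK1A and UPK3A. In RT112 cells it was UPK1B, PPARG, ELF3, FOXA1, GATA3, UPK3B, UPK2, GRHL3, UPK1A and UPK3A, and in SW780 cells UPK1B, PPARG, UPK2, ELF3, FOXA1, UPK1A, GATA3, GRHL3, UPK3B and UPK3A. With 1 library per line and treatment, neighbours in these orders cannot be told apart. With quisinostat UPK1B came first and PPARG second in all 3 lines.

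The uroplakins together made up 139.9 FPKM in RT4 cells, 180.2 in RT112 cells and 182.3 in SW780 cells given DMSO. UPK1B alone gave 26.8% of this sum in RT4 cells, 92.4% in RT112 cells and 64.3% in SW780 cells. Without UPK1B, the other 4 uroplakins summed to 102.4, 13.8 and 65.1 FPKM in that order, so RT112 cells were the line with little of the other uroplakins. With quisinostat the other 4 summed to 19.1 FPKM in RT4 cells, 31.9 in RT112 cells and 9.08 in SW780 cells, and the order of the lines was thus another one. UPK1B then made up 79.5% of the uroplakin sum in RT4 cells, 87.7% in RT112 cells and 87.9% in SW780 cells.

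**Figure D1:**
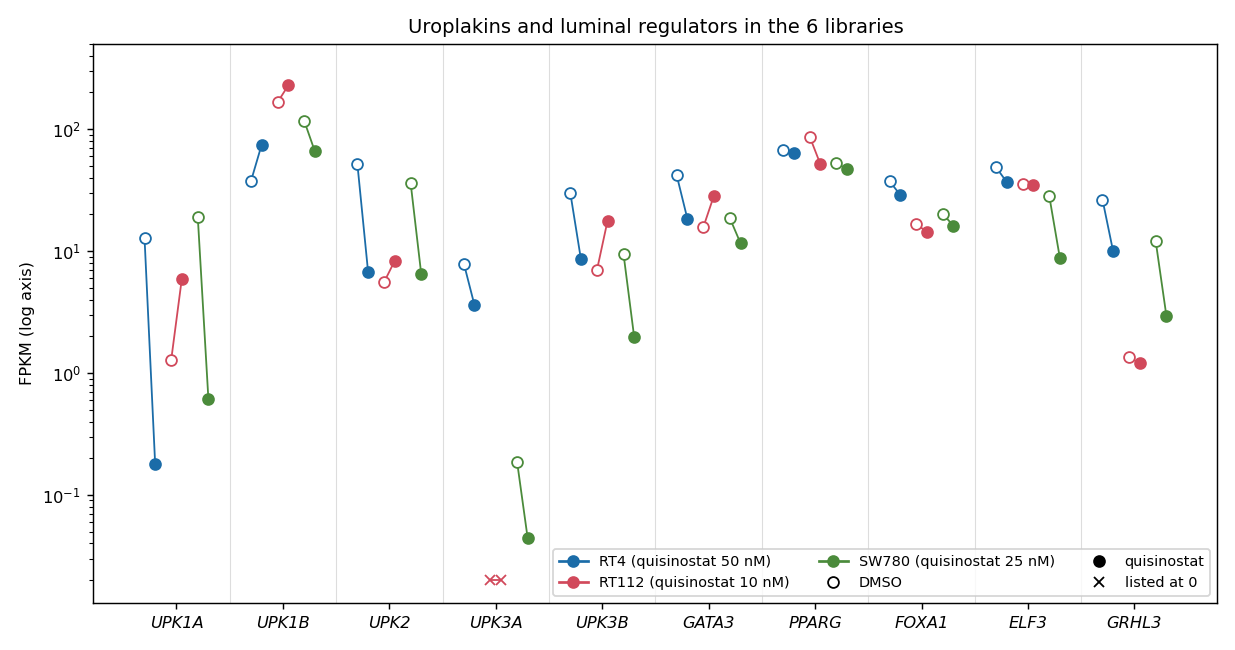
FPKM of the 10 genes (log axis) in DMSO (open circles) and quisinostat (filled circles) libraries of RT4, RT112 and SW780 cells, with a line joining the libraries of a cell line and crosses for values listed at 0. With quisinostat UPK1A is at 0.178 FPKM against 12.8 in RT4 and at 0.613 against 19.2 in SW780 cells, but at 5.89 against 1.27 in RT112 cells, while PPARG stays between 46.9 and 86.5 FPKM in all 6 libraries.

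UPK1A (chromosome 19, 35666516 to 35678483, plus strand; all gene positions are those of GENCODE 29 on GRCh38) encodes the tetraspanin that pairs with UPK2. It was at 12.8 FPKM in RT4 cells with DMSO and at 0.178 with quisinostat, at 1.27 and 5.89 in RT112 cells, and at 19.2 and 0.613 in SW780 cells. The line with the lowest level under DMSO had the highest under quisinostat, and the DMSO and quisinostat libraries overlapped. UPK1A was 71.8-fold lower with quisinostat in RT4 cells, 31.3-fold lower in SW780 cells and 4.64-fold higher in RT112 cells. Only 0.110% of the 9112 loci above 0 in all libraries had a lower ratio in RT4 cells and 0.132% in SW780 cells, and 96.4% had a lower ratio in RT112 cells. These folds rest on quisinostat values under 1 FPKM, for which the number of reads is unknown. With a pseudocount of 1 the log2 ratios were -3.55 in RT4 and -3.65 in SW780 cells, in place of -6.17 and -4.97, and no longer ordered the lines in the same way.

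UPK2 (chromosome 11, 118925164 to 118958559, plus strand), the partner of UPK1A, showed a similar picture. It was at 51.6 FPKM with DMSO and 6.80 with quisinostat in RT4 cells, at 5.55 and 8.30 in RT112 cells, and at 36.2 and 6.44 in SW780 cells. The 3 quisinostat libraries lay close together, between 6.44 and 8.30 FPKM, while the DMSO libraries ranged from 5.55 to 51.6 and overlapped with them. UPK2 was 7.59-fold lower in RT4 and 5.62-fold lower in SW780 cells, where 1.08% and 1.02% of all loci had a lower ratio. In RT112 cells it was higher, with a log2 ratio of 0.58, and 75.8% of all loci had a lower ratio.

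UPK1B (chromosome 3, 119173517 to 119205153, plus strand), the tetraspanin that pairs with UPK3A and UPK3B, did not follow UPK1A. It was at 37.5 FPKM with DMSO and 74.3 with quisinostat in RT4 cells, at 166 and 228 in RT112 cells, and at 117 and 65.9 in SW780 cells. It was higher with quisinostat in RT4 and RT112 cells and lower in SW780 cells, and the treatments overlapped. Its log2 ratio, quisinostat over DMSO, came to 0.99 in RT4 cells, 0.46 in RT112 cells and -0.83 in SW780 cells. In RT4 cells the ratios of both tetraspanins thus had opposite signs.

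UPK3B (chromosome 7, 76510428 to 76516521, plus strand), a single-span partner of UPK1B, was at 30.1 FPKM with DMSO and 8.57 with quisinostat in RT4 cells. In RT112 cells it was at 6.96 and 17.7 FPKM, and in SW780 cells at 9.48 and 1.98. The signs in the 3 lines were those of UPK1A and UPK2, with log2 ratios of -1.81, 1.35 and -2.26. A part of the UPK3B transcript, 3.03% of its 100-base windows, also occurs in transcripts of UPK3BP1 or of a read-through gene that holds it, so its level could include reads of these copies. The related gene UPK3BL1, which was looked at after its values were seen, had log2 ratios of -0.39, 1.45 and 0.33 in RT4, RT112 and SW780 cells.

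UPK3A (chromosome 22, 45284982 to 45295874, plus strand), the other partner of UPK1B, was expressed above 1 FPKM in RT4 cells alone. It was at 7.90 FPKM with DMSO and 3.60 with quisinostat in RT4 cells, was listed at 0 in both libraries of RT112 cells, and was at 0.187 and 0.0439 FPKM in SW780 cells. Both RT4 libraries were above the other 4. The log2 ratio was -1.13 in RT4 cells and -2.09 in SW780 cells, the latter between values so low that no weight can be put on it. UPK3A was left out of the counts over all 3 lines below because a ratio cannot be formed in RT112 cells.

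GATA3 (chromosome 10, 8045378 to 8075203, plus strand), a zinc finger factor that is a standard marker of urothelial tumours, had ratios of the same sign as those of UPK1A, UPK2 and UPK3B in each line, though not as that of UPK1B in RT4 cells. It was at 41.8 FPKM with DMSO and 18.4 with quisinostat in RT4 cells, at 15.7 and 28.6 in RT112 cells, and at 18.5 and 11.6 in SW780 cells. The log2 ratios were -1.18, 0.86 and -0.68. The order of RT4 and RT112 cells for GATA3 was thus reversed with quisinostat.

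GRHL3 (chromosome 1, 24319322 to 24364482, plus strand), a factor of terminal differentiation and barrier formation in surface epithelia, was lower in all 3 lines but only slightly in RT112 cells. It was at 26.4 FPKM with DMSO and 9.96 with quisinostat in RT4 cells, at 1.35 and 1.20 in RT112 cells, and at 12.0 and 2.96 in SW780 cells. RT112 cells were low with either treatment. The log2 ratios were -1.41, -0.17 and -2.02.

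ELF3 (chromosome 1, 202007945 to 202017188, plus strand), an epithelial ETS factor that is often mutated in bladder cancer, differed mainly in SW780 cells. It was at 48.7 FPKM with DMSO and 36.9 with quisinostat in RT4 cells, at 35.6 and 34.9 in RT112 cells, and at 28.3 and 8.74 in SW780 cells. The log2 ratios were -0.40, -0.03 and -1.69, and 2.56% of all loci had a lower ratio in SW780 cells. Of the 100-base windows of the ELF3 transcript, 7.19% also occur in a transcript of AL691482.3. The antisense gene ELF3-AS1, a locus of its own, was at 1.70 FPKM with DMSO and 5.54 with quisinostat in RT4 cells, at 0.892 and 1.05 in RT112 cells, and at 0.799 and 0.635 in SW780 cells. The library kit marks strand, but how strand was used in counting is not given in the sources used here.

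PPARG (chromosome 3, 12287368 to 12434356, plus strand) and FOXA1 (chromosome 14, 37589984 to 37596059, minus strand) varied least. PPARG was at 67.3 FPKM with DMSO and 63.2 with quisinostat in RT4 cells, at 86.5 and 51.5 in RT112 cells, and at 52.8 and 46.9 in SW780 cells. FOXA1 was at 37.4 and 28.9 FPKM in RT4, at 16.5 and 14.5 in RT112 and at 20.1 and 16.1 in SW780 cells. Both were lower with quisinostat in each line, and their treatments overlapped across lines. The log2 ratios of PPARG were -0.09, -0.75 and -0.17 in RT4, RT112 and SW780 cells, and those of FOXA1 -0.37, -0.19 and -0.32. For PPARG it was RT112 cells that had the lowest ratio, and 6.54% of all loci had a lower one there.

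**Figure D2:**
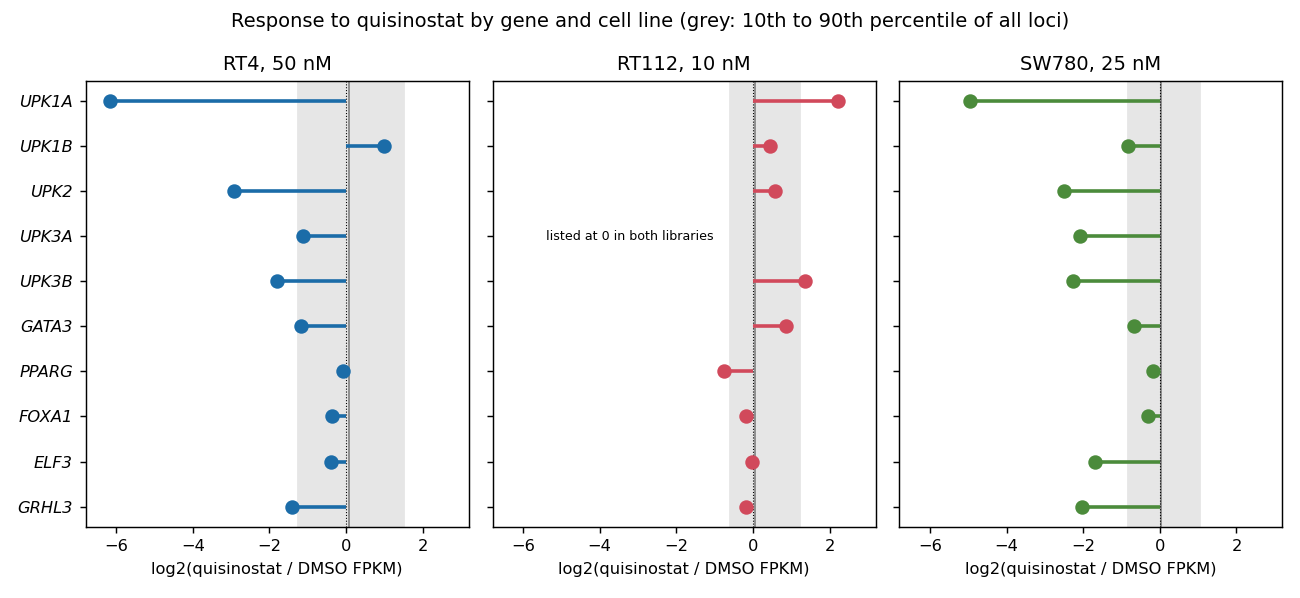
Log2 ratio of quisinostat over DMSO FPKM of the 10 genes in RT4, RT112 and SW780 cells; points are the genes, the grey band runs from the 10th to the 90th percentile of all loci, and the grey line is their median. UPK1A, UPK2, UPK3B and GATA3 lie left of 0 in RT4 and SW780 cells and right of it in RT112 cells, and PPARG and FOXA1 lie between -0.75 and -0.09 in each line.

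Counted over the 9 genes above 0 in all libraries, the set was lower with quisinostat in RT4 and SW780 cells and not in RT112 cells. The median of their log2 ratios came to -1.18 in RT4 cells, 0.46 in RT112 cells and -1.69 in SW780 cells. Over all 9112 loci it was 0.08, 0.06 and 0.04. By role, the median of 4 uroplakins was -2.37, 0.96 and -2.38, and that of the 5 regulators was -0.40, -0.17 and -0.68. In RT4 cells 7 of the 9 were below -0.3, the limit the study uses for lower expression, against 33.5% of all loci, and 1 was above 0.3 against 40.3%. In RT112 cells 1 of 9 was below -0.3 against 25.2%, and 5 were above 0.3 against 36.0%. In SW780 cells 8 of 9 were below -0.3 against 28.2%, and none was above 0.3 against 32.8%.

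At a limit of -1 on the log2 scale, 5 of the 9 genes were lower in RT4 cells against 14.1% of all loci. In SW780 cells they were also 5, against 7.35% of all loci. UPK1A, UPK2, UPK3B and GRHL3 were among them in both lines, with GATA3 in RT4 and ELF3 in SW780 cells. Above 1 in RT112 cells were UPK1A and UPK3B, 2 of the 9, against 13.8%. None of the 9 was below -0.3 in all 3 lines, as 4.99% of all loci were, and none was above 0.3 in all 3 lines, as 11.4% of all loci were. Lower than -0.3 in both RT4 and SW780 cells yet higher than 0.3 in RT112 cells were 4 of the 9, UPK1A, UPK2, UPK3B and GATA3, against 7.35% of all loci. With UPK1B, 5 of the 9 were below -0.3 in at least 1 line and above 0.3 in another, against 29.3% of all loci.

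The ratios of all loci moved with the GC content of their transcripts, and in opposite directions in different lines. Spearman's correlation across 8404 loci, which are not independent replicates, was -0.49 in RT4 cells, 0.44 in RT112 cells and -0.22 in SW780 cells. The transcripts of UPK3B (63.9% GC), UPK3A (60.3%), UPK2 (59.4%), UPK1A (56.6%) and ELF3 (56.0%) are the most GC-rich of the set, and those of PPARG (44.0%) and UPK1B (45.5%) the least. The part of GC content in the ratios was not tested, but the ratios were also computed after a smooth trend with GC content had been subtracted in each line.

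After that correction UPK1A had log2 ratios of -5.75 in RT4 cells, 1.91 in RT112 cells and -4.87 in SW780 cells, close to those before. UPK3B changed most, to -0.64, 0.47 and -1.91. UPK2 changed to -2.22, 0.06 and -2.30, so its higher level in RT112 cells was no longer seen. GATA3 had -0.99, 0.72 and -0.65, and GRHL3 -1.35, -0.24 and -2.03. ELF3 changed to -0.03, -0.30 and -1.61 and PPARG to -0.42, -0.61 and -0.26. UPK1B was at 0.72, 0.56 and -0.92. The pattern of lower in RT4 and SW780 and higher in RT112 cells was then held by 3 of the 9 genes, UPK1A, UPK3B and GATA3, and by 2.44% of 8404 loci. The median over the 9 genes was then -0.64 in RT4 cells, 0.06 in RT112 cells and -1.61 in SW780 cells, so the higher median in RT112 cells was no longer seen.

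**Figure D3:**
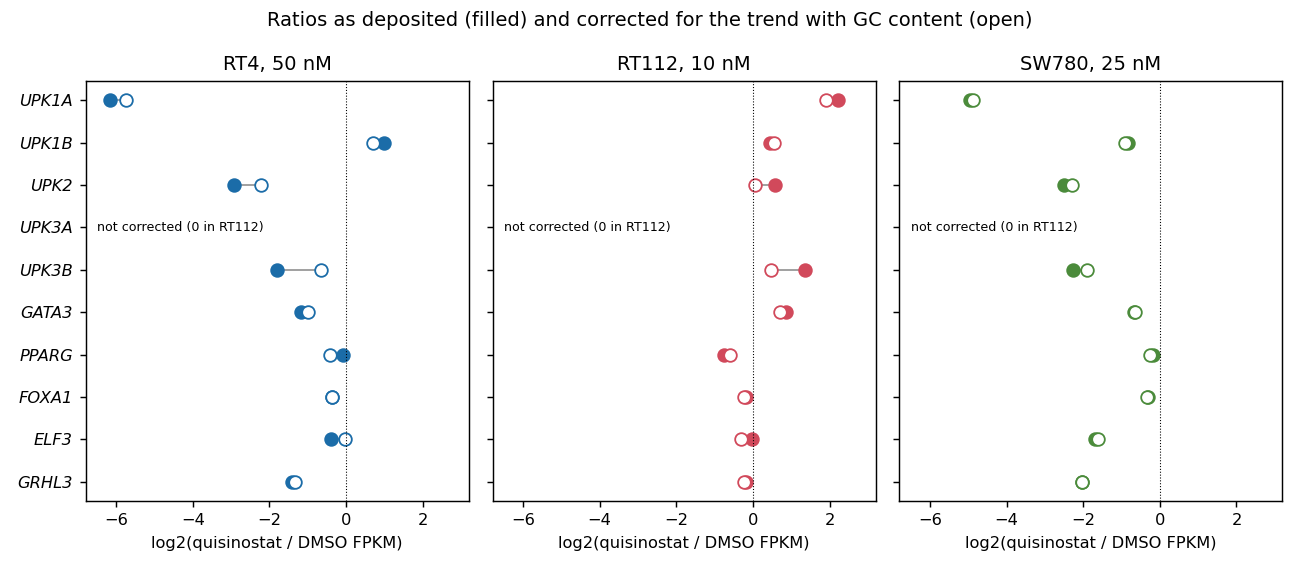
Log2 ratio of quisinostat over DMSO for the genes with a ratio in all lines, as deposited (filled) and after subtraction of the trend with GC content (open), in RT4, RT112 and SW780 cells. UPK3B moves from -1.81 to -0.64 in RT4 and from 1.35 to 0.47 in RT112 cells, while GRHL3 and FOXA1 stay in place.

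With the 3 lines as replicates, quisinostat was compared with DMSO on the log2(FPKM + 1) scale in limma, with line as a block and Benjamini-Hochberg adjustment over 9430 loci with a mean of at least 1 FPKM. A fold change on this scale understates the change of low genes. No member passed an adjusted p of 0.05, and neither did any other locus (0.0%), while 1305 loci had an unadjusted p under 0.05, 913 of them higher and 392 lower. GRHL3 was the only member under that unadjusted limit, with a log2 fold change of -1.05 (standard error 0.36, unadjusted p = 0.0293, limma adjusted p = 0.326), and it was lower in 3 of 3 lines. UPK2 had -1.52 ± 0.64 (standard error, limma adjusted p = 0.369) and ELF3 -0.67 ± 0.33 (limma adjusted p = 0.412). The value of UPK1A was -1.86 ± 1.06 (limma adjusted p = 0.461), with the widest error of the set and ratios of both signs. PPARG had -0.33 ± 0.20, FOXA1 -0.28 ± 0.18, GATA3 -0.32 ± 0.39, UPK3A -0.38 ± 0.38, UPK3B -0.76 ± 0.63 and UPK1B 0.20 ± 0.35, with limma adjusted p between 0.482 and 0.818.

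The calls depended on which lines were used. When RT112 cells were left out, 66 of 9417 loci (0.701%) passed, 48 higher and 18 lower, and 3 of the 10 members were among the lower ones. UPK1A had a log2 fold change of -3.60 ± 0.30 (standard error, limma adjusted p = 0.0393), UPK2 -2.54 ± 0.25 (limma adjusted p = 0.0393) and UPK3B -1.76 ± 0.25 (limma adjusted p = 0.0472). GRHL3 came to -1.52 ± 0.26 with a limma adjusted p of 0.0646, GATA3 to -0.89 ± 0.25 with 0.125 and ELF3 to -0.99 ± 0.33 with 0.155. FOXA1, UPK3A, PPARG and UPK1B were at -0.33, -0.57, -0.13 and 0.07, with limma adjusted p between 0.414 and 0.929. With GC correction as well, a fit added after the data were seen, no locus passed without RT112 cells (limma, 2071 at an unadjusted p under 0.05), and UPK1A had -3.38 (limma adjusted p = 0.0640), UPK2 -2.16 (0.0640) and UPK3B -1.15 (0.122). Leaving out another line gave other values, none of them past the threshold. UPK1A had -1.02 without RT4 and -0.97 without SW780 cells, UPK3B -0.29 and -0.23, UPK2 -0.91 and -1.12, GATA3 0.093 and -0.16, and GRHL3 -0.91 and -0.71. UPK1B had -0.18 without RT4 and 0.71 without SW780 cells, and ELF3 -0.81 and -0.21. Whether RT112 cells differ from the other lines in their response was not tested, because there is 1 library per line and treatment.

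In the same model the lines were compared with each other, over the DMSO and quisinostat libraries of a line together. Those 2 libraries stood as the replicates of a line, so the p-values hold no spread between cultures of a line. Of the 9430 loci, 562 (5.96%) differed between lines at an adjusted p of 0.05, and 2 of the 10 members were among them, UPK3A (limma adjusted p = 0.0460) and GRHL3 (limma adjusted p = 0.0441). FOXA1 (0.0735) and UPK1B (0.0973) were next in limma adjusted p, and UPK1A was last (0.925). Between RT4 and RT112 cells, where 4.85% of all loci passed, GRHL3 was higher in RT4 cells by 2.93 ± 0.44 (log2, standard error, limma adjusted p = 0.0286) and UPK3A by 2.68 ± 0.46 (limma adjusted p = 0.0391). Between RT4 and SW780 cells, where 5.1% passed, UPK3A was higher in RT4 cells by 2.52 ± 0.46 (limma adjusted p = 0.0458). Both line calls lost the threshold in a fit without the treatment term (limma adjusted p = 0.108 for GRHL3 and 0.0515 for UPK3A), and that of GRHL3 also without the mean-variance trend (0.0514, limma adjusted p). Between RT112 and SW780 cells, where 1.13% passed, no member did, and 0.126 for GRHL3 was the lowest limma adjusted p.

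UPK1B was lower in RT4 than in RT112 cells, with a difference of -1.86 ± 0.43 (limma adjusted p = 0.0690), and FOXA1 was higher by 1.04 ± 0.22 (limma adjusted p = 0.0584), so both missed the threshold. The large spread of UPK1A and UPK2 between the libraries of a line is part of the error in this comparison. Baseline levels alone, with 1 DMSO library per line, allow no test.

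Other genes of urothelial identity were taken from lists of gene symbols, and no gene of any list passed the adjusted p for quisinostat. Among 20 other transcription factors of the urothelium, 15 were in the table, with a median log2 ratio of -0.18 in RT4 cells, 0.16 in RT112 cells and -0.40 in SW780 cells. RXRA, the usual partner of PPARG on DNA, was at 14.6 FPKM with DMSO and 3.52 with quisinostat in RT4 cells, at 9.53 and 19.4 in RT112 cells and at 9.91 and 2.27 in SW780 cells. It shared the signs of GATA3, with log2 ratios of -2.05, 1.03 and -2.13, as did RARG, a retinoic acid receptor, with -1.34, 0.45 and -0.64 (RARG was picked after its values were seen). After the GC correction RXRA had -0.95, 0.21 and -1.80 and RARG -0.57, -0.12 and -0.43, so neither was above 0.3 in RT112 cells. RXRB had -1.81, -0.23 and -1.44 as deposited and -1.21, -0.67 and -1.28 after the correction, then below -0.3 in each line. As deposited, KLF5, an activator of epithelial growth, was below -0.3 in each line with -0.75, -0.45 and -0.52. KLF4 (1.99, 3.68 and 1.99) and TFAP2A (0.59, 0.53 and 0.57) were above 0.3 in each. KLF4 was low, between 0.142 and 1.77 FPKM with DMSO.

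All 21 listed luminal markers were in the table, and the 18 with ratios had medians of -0.66, -0.11 and -0.61 in RT4, RT112 and SW780 cells. Below -0.3 in all 3 lines were 3 of the 18, ERBB3 (which shares its locus with PA2G4), S100P and ACER2, against 4.99% of all loci. The pattern of lower in RT4 and SW780 and higher in RT112 cells was held by 4, the luminal keratins KRT19, KRT7 and KRT8 and the receptor gene ERBB2, against 7.35% of all loci. These 7 are named because of their values. After the GC correction KRT8 alone of the 4 held it (-0.66, 0.71 and -1.25), since KRT19 and ERBB2 were at 0.11 and 0.24 in RT112 cells and KRT7 at -0.20 in RT4 cells. Of 8404 loci, 2.44% then held it. PSCA, a surface antigen of the bladder, was at 9.06 FPKM with DMSO and 0.707 with quisinostat in RT4, 12.7 and 10.4 in RT112 and 71.3 and 3.999 in SW780 cells. Its log2 ratios were -3.68, -0.30 and -4.16 as deposited and -2.62, -1.09 and -3.84 after the GC correction. CYP4B1, a cytochrome P450 of the bladder, had log2 ratios of -0.53, -0.12 and -5.07, and CDH1, the gene of E-cadherin, 0.32, 0.28 and 0.32.

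KRT20, the keratin of umbrella cells, went the other way from UPK1A and UPK2 in each line. It was at 3.21 FPKM with DMSO and 62.7 with quisinostat in RT4 cells, at 1.11 and 0.336 in RT112 cells and at 0.356 and 2.80 in SW780 cells. The log2 ratios were 4.29, -1.72 and 2.98. In limma its log2 fold change over the lines was 1.58 ± 0.83 (standard error, adjusted p = 0.434).

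Of 13 listed PPARG targets, 10 were in the table, and the 8 with ratios had medians of -0.31, -0.19 and 0.45. FABP4, a fatty acid carrier that PPARG is known to induce, was at 1159.6 FPKM with DMSO and 532 with quisinostat in RT4 cells, at 704 and 679.5 in RT112 cells and at 267 and 944 in SW780 cells. ACSL5, an acyl-CoA synthetase, had log2 ratios of -1.11, -1.14 and -0.95, and AQP3, a water channel, -1.13, -0.90 and 0.67. PLIN2, a lipid droplet protein, had 0.23, 0.14 and 0.28. These targets did not share 1 direction in any line. In RT4 cells 4 of the 8 were below -0.3 and 2 above 0.3, against 33.5% and 40.3% of all loci. In RT112 cells 4 were below and 1 above, against 25.2% and 36.0%. In SW780 cells 3 were below and 4 above, against 28.2% and 32.8%.

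Of 19 basal markers 15 were in the table, at 11 loci with ratios, and their medians were -0.09, 0.66 and 0.35 in RT4, RT112 and SW780 cells. KRT5, the keratin of basal cells, shares its locus with KRT6A, and that locus was at 9.63 FPKM with DMSO and 66.2 with quisinostat in RT112 cells and at 0.447 or less in the other lines. KRT16 had log2 ratios of -4.47, 1.97 and -0.38 and ITGB4 -1.72, 1.33 and 0.10. The KRT16 ratio in RT4 cells lies between low values, 0.907 FPKM with DMSO and 0.041 with quisinostat. After the GC correction KRT16 had -3.59, 1.32 and -0.13 and ITGB4 -0.58, 0.47 and 0.44. CD44 (1.27 in RT4 and 1.64 in SW780 cells, with 81.6 FPKM in both libraries of RT112 cells) and ITGA6 (1.86, -0.09 and 1.30) had their higher ratios in RT4 and SW780 cells. TP63, the factor of the basal layer, was at 46.5 FPKM with DMSO and 39.0 with quisinostat in RT4, 42.0 and 50.9 in RT112 and 19.7 and 46.0 in SW780 cells. In RT112 cells UPK1A and the KRT5 locus were thus both higher with quisinostat.

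Of 9 mesenchymal markers 3 were in the table, and each was above 0.3 in all 3 lines, as 11.4% of all loci were. CDH2, the gene of N-cadherin, was at 0.0212 FPKM with DMSO and 0.752 with quisinostat in RT4 cells, where both values are low, at 1.17 and 2.97 in RT112 cells and at 1.02 and 5.57 in SW780 cells. FN1, the gene of fibronectin, had log2 ratios of 3.40, 2.34 and 1.26, and SNAI2, a repressor of epithelial genes, 0.99, 1.34 and 1.60. In limma FN1 had a log2 fold change of 2.14 ± 0.34 (standard error, adjusted p = 0.226). These genes were higher also in RT112 cells, where the uroplakins were not lower.

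Lists of genes of the transport and of the neighbourhood of uroplakins had medians smaller in size than the uroplakins, though single genes went both ways. The 9 loci with ratios among 11 genes of uroplakin vesicle traffic had medians of 0.22, 0.02 and 0.01. MAL, left out of these medians because it was listed at 0 with quisinostat in SW780 cells, was picked after its values were seen. In RT4 cells MAL was at 43.2 FPKM with DMSO and 7.58 with quisinostat, a log2 ratio of -2.51. SNX31, a sorting nexin that binds uroplakins, had log2 ratios of -0.59, 1.40 and -1.24, MAL2 0.47, -0.96 and -0.24, RAB11A 0.48, -0.07 and 0.52, and SNAP23 0.51, 0.49 and 0.38. Among 11 tight junction genes the 8 with ratios had medians of 0.04, 0.25 and -0.17. CLDN4 had log2 ratios of -1.15, 0.52 and -0.38, CGN 0.08, 0.79 and 0.92, and TJP1 0.01, 1.32 and 0.77. After the GC correction CLDN4 had -0.64, 0.15 and -0.25, CGN 0.45, 0.51 and 1.01, and TJP1 -0.29, 1.44 and 0.68.

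**Figure D4:**
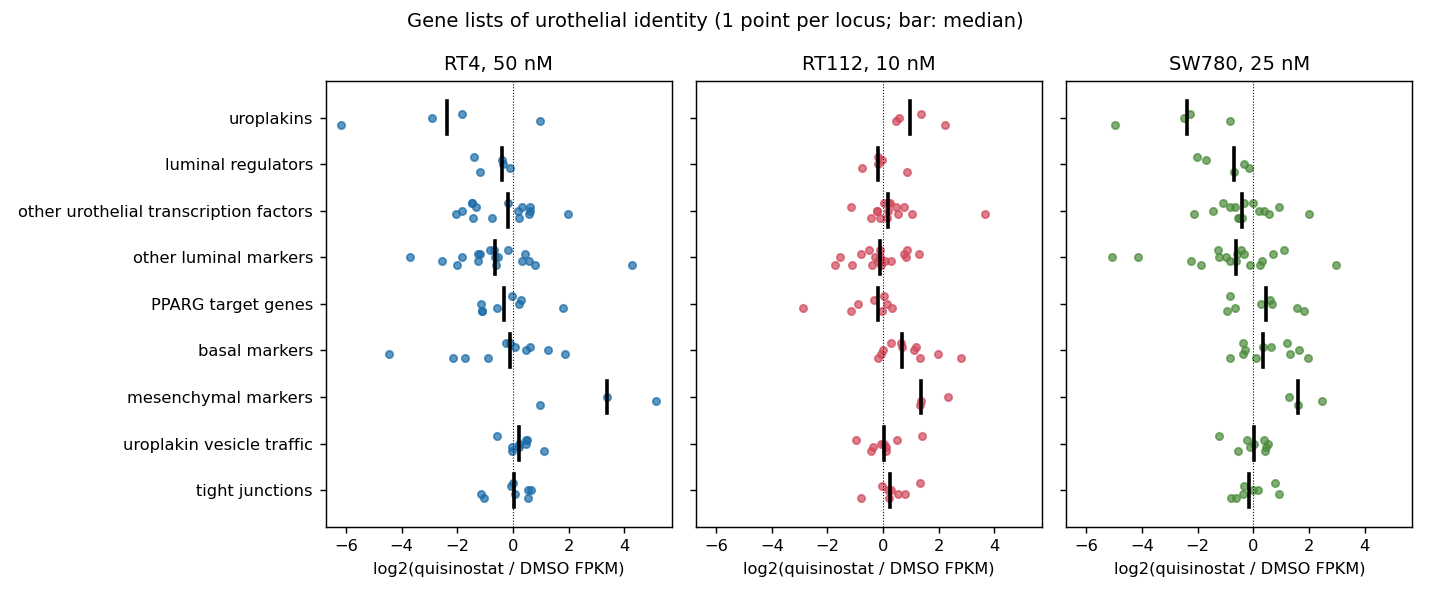
Log2 ratio of quisinostat over DMSO for the uroplakins, the luminal regulators and 7 other gene lists in RT4, RT112 and SW780 cells; each point is a locus above 0 in all libraries and each bar the median of its list. The uroplakin medians are -2.37, 0.96 and -2.38 in that order, and the 3 mesenchymal markers lie right of 0 in each line.

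Genes known to respond to HDAC inhibitors were used to look at the treatment itself, and they too differed between lines. GSN was at 12.9 FPKM with DMSO and 24.6 with quisinostat in RT4 cells, at 5.76 and 39.9 in RT112 cells and at 0.130 and 0.367 in SW780 cells. CDKN1A had log2 ratios of 0.12, 1.36 and 0.52 in that order, and CLU 0.09, 2.62 and -0.32. H1F0 had 1.08, 0.45 and -0.04. TUBB3, which shares its locus with TCF25, had -1.90, 0.54 and -0.61. In RT112 cells, the line with the lowest dose, all 5 were above 0.3 against 36.0% of all loci. In RT4 cells 2 were, against 40.3%, and in SW780 cells 2, against 32.8%. After the GC correction 4 were above it in RT112 cells, with TUBB3 at 0.05. In RT4 cells CDKN1A (0.68) was then above it too, besides GSN and H1F0, and in SW780 cells GSN and CDKN1A were, as before.

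Across the 6 libraries, 18 of 9429 other loci had a Pearson correlation of log2(FPKM + 1) over 0.95 with UPK2. These points share line and treatment, so the correlations are a description. The 5 named loci most like UPK2 were AC005523.2 (0.99), AHCY (0.99), SNRNP70 (0.99), UBA7 (0.98) and ATPIF1 (0.98). UBA7 was close to UPK2 in its ratios too, with -2.55 in RT4 cells, 0.58 in RT112 cells and -2.64 in SW780 cells. For PPARG, 10 loci were over 0.95, and the 5 most like it were RPS10P3 (0.99), LSM3 (0.98), VEGFA (0.98), HSP90AB1 (0.97) and TMEM164 (0.97). RPS10P3 is a pseudogene of a ribosomal protein gene and may share reads with it.

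Within the set, over the same 6 libraries, the Pearson correlation was 0.97 for UPK3A with FOXA1 and for UPK3B with GATA3, and 0.91 for FOXA1 with GRHL3. UPK1A and UPK2 gave 0.87. UPK1B had negative values with FOXA1 (-0.80), GRHL3 (-0.78), UPK3A (-0.78), UPK2 (-0.47) and GATA3 (-0.21), and values near 0 with UPK3B (-0.06), UPK1A (-0.01), PPARG (0.02) and ELF3 (0.08). The high value of UPK3A with FOXA1 rests on the RT4 libraries, the 2 with the highest level of both. The cultures are bulk samples, so fewer cells that express a gene and less RNA of it per cell cannot be told apart.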

How the data were processed

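RNA of RT4, RT112 and SW780 cells (DMSO or quisinostat, 1 library each) was prepared with a TruSeq Stranded mRNA kit and sequenced on a NovaSeq. The deposited values are FPKM, which the authors took from Ballgown after the tools that the submitters' processing notes list: CASAVA 1.8.2, Trimmomatic 0.36, HISAT2 2.2.1, SAMtools 1.15.1 and StringTie 2.2.1, on GRCh38. The Ballgown version and the annotation release are not given in the sources used here. Of 10515 rows, 917 had no gene name. One value per locus was used (10066 loci), and plain log2 ratios were formed at the 9112 loci above 0 in all 6 libraries. Libraries were paired by cell line, since both libraries of a pair come from the same line. limma 3.58.1 in R 4.3.3 was run on log2(FPKM + 1) for loci with a mean of at least 1 FPKM, blocked on line. The trend option and Benjamini-Hochberg adjustment were used, 2-sided at 0.05. For quisinostat, p-values measure the spread of the response between lines, with 2 residual degrees of freedom before pooling over loci. Fits without 1 line had fewer. Line comparisons use the same residual, with the DMSO and quisinostat libraries of a line as its replicates. Their p-values hold no spread between cultures of a line. For the GC correction, ratios of each line were smoothed by lowess (span 0.3) over the GC content of GENCODE 29 transcripts and the curve was taken off. GC content was known for 89.6% of loci. The limma step was run on simulated data with noise limited in size and the same response in every line. That run does not cover genes whose lines respond in opposite directions. The genes, the gene lists and the limits were chosen with earlier results of these data known. All 10 members were named, and from each of 7 other lists the 2 genes with the lowest and the 2 with the highest mean ratio (mean of at least 1 FPKM), plus KRT20, KRT5, TP63, KLF5, ELF3-AS1 and 5 HDAC inhibitor response genes; 1 gene that this rule names is not reported here. Alternatives were pseudocounts, filters, scaling, no trend, no block, no treatment term and leaving out each line.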

Additional observations from a re-analysis of the deposited data

Results flagged for a closer look

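For 5 of the 9 genes with ratios in all 3 lines, quisinostat went with a log2 ratio below -0.3 in at least 1 line and above 0.3 in another, as did 29.3% of all loci. The gap between the highest and the lowest log2 ratio was 8.38 for UPK1A, 3.61 for UPK3B, 3.50 for UPK2, 2.04 for GATA3 and 1.82 for UPK1B. For UPK1A, UPK2, UPK3B and GATA3 the high line was RT112, and for UPK1B it was RT4 and the low line SW780. After the GC correction the count was 4 genes, without UPK2, against 18.2% of 8404 loci, and the gaps of UPK3B and UPK2 were 2.39 and 2.36. The difference between lines was not tested, since each line has 1 library per treatment, and dose differs between the lines as well.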

How the results depend on the processing

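Of the limma fold changes of the 10 genes, 3 alternative values had another sign (UPK3A could not be fitted without RT4 cells or at a mean of at least 5 FPKM). With 1 line left out, UPK1B ranged from -0.18 (without RT4 cells) to 0.71 and GATA3 from -0.89 to 0.093 (without RT4 cells). UPK1B was at -0.10 without RT112 cells and with GC correction together, a fit added after seeing the data in which 0 loci passed. Leaving out a line gave between 1 and 66 loci past the adjusted p (limma) for quisinostat, 66 without RT112, 3 without SW780 and 1 without RT4 cells, against 0 with all lines and under the other alternatives, the fits without the line block (replicate block, 0 loci past the threshold, 420 at an unadjusted p under 0.05) and with GC correction included (all 3 lines). Line differences counted 562 of 9430 loci, and 354 of 9430 without the treatment term. With the GC correction, a fit added after seeing the data, they counted 2523 of 8643 loci. UPK1B (limma adjusted p = 0.0387) and FOXA1 (0.0209) then also passed, where many more of all loci did. That correction takes a trend off the difference between the libraries of a line, from which the error of this comparison comes. Its calls thus cannot be set beside those of the main fit. With 1 line left out, between 0 and 7 genes of the set were below -0.3 in the remaining lines, 7 without RT112 cells. Between 0 and 1 were above 0.3, UPK1B without SW780 cells. The shares of all loci in pairs of lines were not computed. Below -0.3 in both RT4 and SW780 cells can be no more than 28.2%, the share in SW780 cells alone. Above 0.3 in both RT4 and RT112 cells can be no more than 36.0%, the share in RT112 cells alone. Quantile normalization moved the loci with an unadjusted p under 0.05 from 913 higher and 392 lower to 638 and 570. None of 27 plain ratios of the set changed sign under the pseudocounts, centring, rescaling or the GC correction. The GC correction took 3 of them across the limit of 0.3 in size (UPK2 in RT112 and ELF3 in RT4 cells to within it, PPARG in RT4 cells beyond it), and rescaling to the same sum took 1, FOXA1 in SW780 cells, to -0.29. The causes were not tested. Depth is unknown, so values under 1 FPKM, such as UPK3A in SW780 cells, carry no stated error.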
